A study of Mus musculus with 6 samples.

Results

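The genes described here are 48 transcripts chosen by their measured levels, which were at least 4 times more abundant in the splenic regulatory T cell (Treg) libraries with little Trim28 RNA than in those with high Trim28 RNA. Trim28 encodes KAP1. Treg are the Foxp3-expressing CD4 T cells that restrain immune responses. Of 37991 rows in the count table, 12042 had a mean of at least 1 CPM (the count scaled to the library total) in the libraries with low Trim28. A row was kept if that mean was at least 4 times the mean of the other libraries plus 0.1 CPM, and if the lowest library of the first set lay above the highest of the second. In all, 59 rows passed (0.49% of the 12042), and 11 were left out by name, among them Myo5b, Kcnf1, Trim24 and the vomeronasal receptor gene Vmn2r96, which leaves 48. With the 2 sets exchanged, 14 rows passed (0.116% of 12036).

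The series holds 6 libraries of YFP-positive Treg sorted from spleens of C57BL/6 mice, 3 labelled wild type and KAP1 sufficient and 3 labelled KAP1 deficient. Which promoter or driver line deletes the gene, whether the wild type cells carry the same driver, the age of the mice, and whether libraries came from separate animals are not stated in the labels, so spreads and p-values may be technical. Library totals ran from 9954344 to 10994745 counts. The Trim28 counts were 2462, 2483 and 2544 in the libraries labelled sufficient 1, sufficient 2 and deficient 3, and 218, 232 and 185 in those labelled sufficient 3, deficient 1 and deficient 2. Trim28 thus goes against the label in both libraries numbered 3. Whether these libraries were exchanged could not be settled here, so values by label may not compare sufficient with deficient cells.

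Below, the low-Trim28 libraries are those labelled sufficient 3, deficient 1 and deficient 2, and the high-Trim28 libraries those labelled sufficient 1, sufficient 2 and deficient 3. Counts are given in this order. The sets come from the measured Trim28 count and not from the labels, and the rule used the contrast between them, so all differences of the 48 genes between the sets are descriptions without a test. That the sets do not overlap for any of them is part of the rule.

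KAP1 is a co-repressor without DNA-binding specificity of its own. KRAB zinc finger proteins bring it to DNA, where it recruits the histone methyltransferase SETDB1, HP1 proteins and deacetylases, and chromatin marked by histone H3 lysine 9 trimethylation forms. The best known targets are endogenous retroviruses and imprinted regions, and loss of KAP1 is known to release retroviral elements and genes that lie near them.

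Most of the 48 genes were rare transcripts. Their mean in the low-Trim28 libraries ran from 1.06 to 246 CPM with a median of 4.37 CPM, and 12 lay at 10 CPM or more. In the high-Trim28 libraries the median was 0.268 CPM, and 35 of the 48 had a mean under 1 CPM. In these libraries 8 of the genes had no count at all and another 8 had 1 to 3 counts over all 3 libraries together, where 3 counts, the limit that a count of 0 allows, are 0.273 to 0.301 CPM per library. Per kilobase of annotated exon the median level in the low-Trim28 libraries was 1.15 CPM per kb for the genes with a position, against 8.77 CPM per kb over 11734 rows with a mean of at least 1 CPM. The 48 genes summed to 770, 751 and 684 CPM in the low-Trim28 libraries and to 95.3, 82.8 and 91.7 CPM in the others. Because these are bulk samples, more cells with a transcript and more transcript per cell cannot be told apart.

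**Figure D1:**
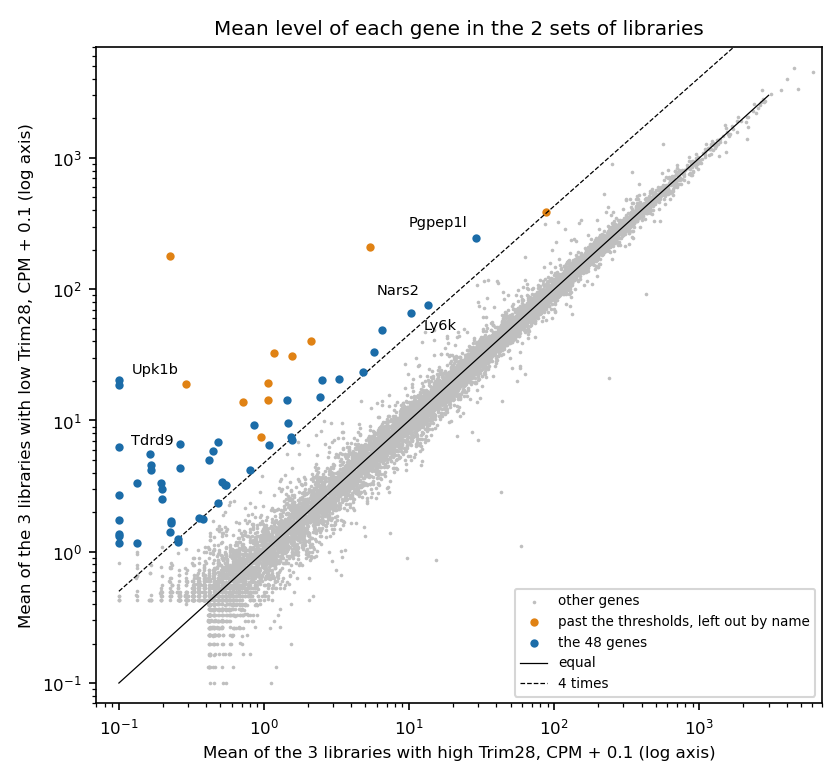
Mean level of each gene in the 3 libraries with high Trim28 (x axis) against the 3 with low Trim28 (y axis), as CPM + 0.1 on log axes; grey points are other genes with a mean of at least 0.3 CPM in either set, blue points the 48 genes, orange points genes left out by name, and the dashed line is the 4-fold limit of the rule. Pgpep1l has the highest mean of the 48 in the low-Trim28 libraries, 246 CPM, and Upk1b and Tdrd9 are among the genes at 0 in the high-Trim28 libraries.

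By annotation 39 of the 48 were protein-coding, 2 were constant segments of the T cell receptor gamma locus, 2 were antisense transcripts and 5 had no name in the reference table. The 43 with a position lay on 17 chromosomes, with 6 on chromosome 8, 5 on chromosome 2 and 4 each on chromosomes 7 and 15. Trim28 itself is on chromosome 7, and the closest of the genes, Cyp2s1, lies 12.8 Mb from it. Just inside the 4-fold limit were Btnl2, Cdh1 and Gfra1, at 4.22, 4.46 and 4.50 times the other mean plus 0.1 CPM. Just outside were Dnase1l3, Gpat3 and Actr3b, at 3.95, 3.95 and 3.83 times.

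Promoter sequence was not used to choose the genes. RefSeq promoters on GRCm38.p6, 250 bases before to 50 after each annotated start, were found for 31 of the 43 named genes (35 promoters). Printed here, 5′ to 3′ on the strand of the gene, are those of the most abundant gene (Pgpep1l), of the neighbours Fam160a1 and Glt28d2, of a gene at 0 counts in every high-Trim28 library (Tdrd9), and of the zinc finger genes Gm14124 and Zfp345. They are at chr7:68264184-68264483 (minus strand), chr3:85746160-85746459 (minus), chr3:85887469-85887768 (minus), chr12:111971309-111971608 (plus), chr2:150257267-150257566 (plus) and chr2:150485014-150485313 (minus). Capitals mark CpG sites, the dinucleotide at which DNA is methylated.
Pgpep1l: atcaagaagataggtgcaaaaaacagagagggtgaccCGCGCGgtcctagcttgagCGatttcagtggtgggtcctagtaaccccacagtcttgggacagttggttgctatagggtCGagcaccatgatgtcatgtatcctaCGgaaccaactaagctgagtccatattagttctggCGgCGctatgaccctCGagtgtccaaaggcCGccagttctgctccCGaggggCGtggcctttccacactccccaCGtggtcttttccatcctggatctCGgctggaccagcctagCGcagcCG
Fam160a1: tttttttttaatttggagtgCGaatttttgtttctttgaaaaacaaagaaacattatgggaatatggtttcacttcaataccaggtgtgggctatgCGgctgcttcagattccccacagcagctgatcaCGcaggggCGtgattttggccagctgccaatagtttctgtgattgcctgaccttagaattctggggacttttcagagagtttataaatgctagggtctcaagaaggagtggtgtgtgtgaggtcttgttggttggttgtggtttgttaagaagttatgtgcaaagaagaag
Glt28d2: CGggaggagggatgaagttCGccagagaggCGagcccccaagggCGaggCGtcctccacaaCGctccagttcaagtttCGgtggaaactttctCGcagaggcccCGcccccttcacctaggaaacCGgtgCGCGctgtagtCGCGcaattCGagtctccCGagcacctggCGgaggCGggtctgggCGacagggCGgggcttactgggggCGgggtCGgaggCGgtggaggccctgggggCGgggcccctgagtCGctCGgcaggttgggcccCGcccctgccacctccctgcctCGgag
Tdrd9: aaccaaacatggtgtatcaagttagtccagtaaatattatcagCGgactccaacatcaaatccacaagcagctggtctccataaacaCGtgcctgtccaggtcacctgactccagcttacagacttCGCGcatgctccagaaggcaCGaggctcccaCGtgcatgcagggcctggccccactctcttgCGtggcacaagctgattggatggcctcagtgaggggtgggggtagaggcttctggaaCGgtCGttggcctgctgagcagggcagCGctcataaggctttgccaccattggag
Gm14124: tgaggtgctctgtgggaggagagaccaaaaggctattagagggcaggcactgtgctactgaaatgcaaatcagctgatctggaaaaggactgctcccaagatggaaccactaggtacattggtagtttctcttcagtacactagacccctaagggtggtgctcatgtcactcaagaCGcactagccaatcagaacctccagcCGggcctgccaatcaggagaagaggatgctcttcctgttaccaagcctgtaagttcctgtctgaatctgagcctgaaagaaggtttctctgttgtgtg
Zfp345: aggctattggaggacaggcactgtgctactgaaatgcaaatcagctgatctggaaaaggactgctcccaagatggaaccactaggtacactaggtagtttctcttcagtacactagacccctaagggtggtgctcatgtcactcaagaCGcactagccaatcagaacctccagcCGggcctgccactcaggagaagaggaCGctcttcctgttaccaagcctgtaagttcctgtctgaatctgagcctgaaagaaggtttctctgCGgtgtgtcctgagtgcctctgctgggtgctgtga

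These promoters hold 16 CpG sites for Pgpep1l, 4 for Fam160a1, 28 for Glt28d2, 10 for Tdrd9, 2 for Gm14124 and 4 for Zfp345. The neighbours Fam160a1 and Glt28d2 thus differ widely in CpG content, and the Fam160a1 start in RefSeq lies inside the gene as annotated by GENCODE. The Gm14124 and Zfp345 promoters are near copies, identical at 264 of 300 bases (88.0%) in a global alignment. The pair Fam160a1 and Glt28d2, aligned in the same way, shared 128 bases (42.7%), and the unrelated pair Pgpep1l and Tdrd9 shared 147 (49%).

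Over the 35 promoters the median was 14 CpG sites, against 21 in 11158 promoters of genes tested in the 4-library fit described below and 7 in all 32851 promoters of the table. At least 10 CpG sites were present in 23 of the 35 (65.7%), against 80.2% of promoters of tested genes and 43.5% of all. The range among these 35 promoters was wide, from 0 sites at the antisense transcripts Gm13348 and Gm15614 to 42 at Sh3pxd2b and 40 at a Cnr1 start. Motifs were searched as exact letters on both strands. GGGCGG, the GC box, was in 20 of the 35 (57.1%, against 63.1% of promoters of tested genes and 35.7% of all), CCAAT in 12 (34.3%, against 37.9% and 37.4%), and TGCCGC, the core of the ZFP57 site, in 6 (17.1%, against 19.5% and 11.6%). TATAAA was in 3 (8.57%, against 6.57% and 13.6%) and TGACGTCA, the cAMP response element, in 0 (against 3.13% and 1.79%). These shares are descriptions, and a match is not a binding site.

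**Figure D2:**
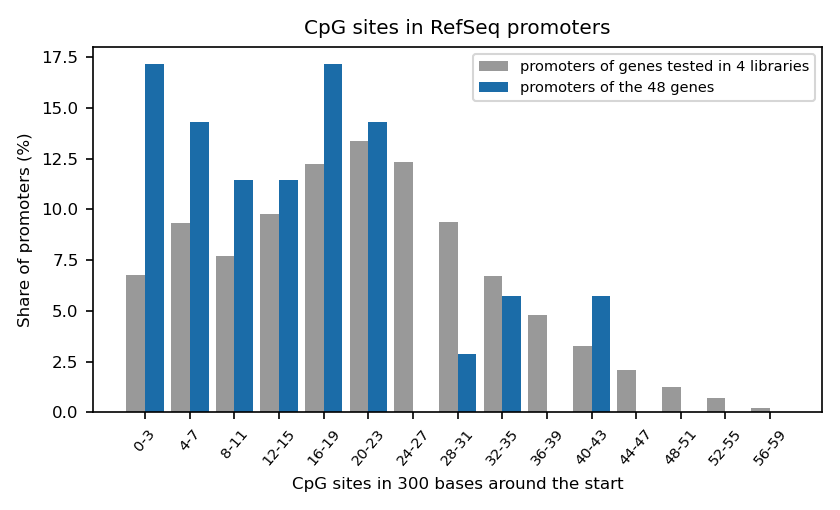
Share of RefSeq promoters (y axis, %) by the number of CpG sites in 300 bases around the start (x axis), for promoters of genes tested in the 4 libraries (grey, 11158 promoters) and of the 48 genes (blue, 35 promoters). The blue bars reach from 0 to 42 sites, with 6 promoters at 0 to 3 sites, 17.1% against 6.75% of the grey set.

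Several of the most abundant genes encode enzymes. Pgpep1l, which encodes a pyroglutamyl-peptidase I-like protein (ENSMUSG00000030553, chromosome 7, 68236610 to 68264233), had 2580, 2503 and 2389 counts in the low-Trim28 libraries and 292, 268 and 338 in the others. Its level was 246 ± 5.53 against 28.7 ± 2.22 CPM (SD, n = 3 libraries in each set), 8.59 times as high, and with 245 CPM per kb it was the highest of the 48 per length as well. The low-Trim28 libraries lay within 1.04 times of each other. Nars2 encodes the mitochondrial asparaginyl-tRNA synthetase, which charges the tRNA used in mitochondrial protein synthesis. It had 796, 776 and 710 against 134, 131 and 156 counts, 5.59 times as high by mean CPM. Unlike most of the 48 genes, Pgpep1l and Nars2 were well expressed in the high-Trim28 libraries too, and the difference there is one of amount.

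Among enzymes that act on lipids and foreign compounds, the cytochrome P450 gene Cyp2s1 had 355, 329 and 325 against 51, 64 and 62 counts, a mean of 33.2 ± 1.05 against 5.66 ± 0.620 CPM. Gstt1, a glutathione S-transferase of the theta class, had 37, 36 and 50 counts against 0, 2 and 0. The ratio was 63.4 and its counting interval (95%, exact binomial) reached from 17.2 to 530. Cbr3, a carbonyl reductase, had 48, 33 and 18 counts against 1, 0 and 0 (ratio 102, counting interval 17.9 to 4072). Intervals cover counting error only. All 3 genes are known from xenobiotic metabolism in liver, gut or airway, and Gstt1 and Cbr3 were close to undetected in the high-Trim28 libraries.

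The other enzymes were rarer than Cyp2s1. Chst3, a chondroitin sulfotransferase, had 35, 41 and 49 against 5, 11 and 6 counts, and Glt28d2, a glycosyltransferase-domain gene, 66, 67 and 62 against 10, 7 and 14. Pld4, an endolysosomal nuclease that degrades single-stranded nucleic acid in B cells and dendritic cells, had 36, 27 and 36 against 0, 2 and 1. Abca8b, a lipid transporter of the ABC family, had 64, 48 and 54 against 1, 0 and 1, a ratio of 85.6 (counting interval 23.3 to 713). In each of these genes the lowest of the low-Trim28 libraries held at least 27 counts.

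Another class encodes surface proteins known from other tissues. Upk1b encodes a uroplakin, a tetraspanin of the bladder lining (ENSMUSG00000049436, chromosome 16, 38773184 to 38800328). It had 241, 239 and 136 counts in the low-Trim28 libraries and 0 in each of the others, and was at least 212-fold higher when the high-Trim28 set is put at 3 counts over its 3 libraries. Adgrg5, an adhesion G protein-coupled receptor gene, had 109, 28 and 61 counts against 5, 0 and 0. Cnr1, which encodes the cannabinoid receptor CB1 of neurons, had 37, 31 and 21 against 2, 1 and 0 (ratio 30.6, counting interval 10.1 to 151). Cacna1i, a subunit of a T-type calcium channel, had 72, 66 and 86 against 25, 6 and 14. Of these, Cacna1i had the highest remaining level at high Trim28, at 1.45 ± 0.954 CPM against 7.39 ± 1.10 CPM in the low-Trim28 libraries.

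Ly6k, a GPI-anchored protein of the Ly6 family known from sperm, was the most abundant surface gene. It had 919, 799 and 280 counts against 156, 53 and 111, so that the lowest of the one set stood only 1.82 times above the highest of the other by CPM. Krt83, a hair keratin gene, had 89, 95 and 101 against 12, 16 and 15 counts, and Wfdc2, a secreted protease inhibitor of epithelia, 69, 72 and 73 against 16, 11 and 19. Both were steady within each set.

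Tdrd9, M1ap and Cfap53 are known from germ cells and cilia. Tdrd9, a helicase of the piRNA pathway that silences retrotransposons in male germ cells (ENSMUSG00000054003, chromosome 12, 111971559 to 112068854), had 56, 48 and 83 counts against 0, 0 and 0, at least 64.3-fold higher. M1ap, a gene of male meiosis, had 44, 41 and 44 against 3, 1 and 1 counts, and Cfap53, a gene of cilia and flagella, 54, 60 and 61 against 3, 1 and 7. A list of 20 germline genes gives the context: 11 of them had no count in any library. Of the 3 that were abundant enough for the 4-library fit, 1 was called higher (9.96% of all tested genes were), Tdrd9 itself, which the rule had chosen from the same libraries. The other two were Brdt, with 22, 13 and 14 against 21, 23 and 35 counts, and Piwil2, with 16, 18 and 9 against 9, 11 and 24. In Dazl, Sycp3, Ddx4 and the remaining members no library held more than 3 counts, so Tdrd9 alone gives 44.4% of the counts of the list.

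Regulators of transcription, RNA and signalling made up a further class. Snai3, a zinc finger repressor of the Snail family (chromosome 8, 122454208 to 122460733), had 220, 197 and 195 counts against 24, 29 and 22, a mean of 20.2 ± 1.04 against 2.41 ± 0.425 CPM. Gm14124, a predicted protein-coding gene, had 99, 97 and 81 against 5, 7 and 12, and the zinc finger gene Zfp345 had 30, 34 and 31 against 3, 3 and 8. Zinc finger genes of a cluster can share near-identical stretches, so reads may be shared between them and their counts are uncertain. Rnf152, a lysosomal ubiquitin ligase that restrains mTORC1, had 84, 66 and 54 against 4, 4 and 4. Rbpms, an RNA-binding protein gene, had 48, 63 and 37 against 1, 5 and 4. Cables1, a CDK-binding adaptor, had 31, 35 and 28 against 4, 4 and 6, and the antisense gene Gm6277 overlaps 34.2% of its exonic bases. In all, 11 of the 48 genes share exonic bases with a gene on the opposite strand, among them Ly6k with Gm17189 (47.6% of its exonic bases) and Pltp with Ctsa (19.3%), which had 9165 counts over the 6 libraries. Without strand, reads in these stretches cannot be told apart.

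Of the remaining protein-coding genes, Fam160a1, an adaptor gene of vesicle transport, was the most abundant, with 447, 509 and 514 counts against 67, 61 and 72. Uncharacterised C530008M17Rik had 167, 155 and 135 against 22, 29 and 22, and the coiled-coil gene Ccdc102a 200, 113 and 121 against 15, 13 and 14. Cpne5, a calcium-dependent membrane-binding copine, had 29, 24 and 47 against 6, 3 and 4, and Sh3pxd2b, a scaffold of podosomes, 22, 24 and 22 against 3, 3 and 6. The 9 protein-coding genes left ran from Pltp at 1.06 CPM to Cd300lb at 2.41 CPM in the low-Trim28 libraries, with means of 0 to 0.278 CPM in the others. Besides these they were Dkk3, a secreted Wnt modulator; Cdh1, which encodes E-cadherin; Prr5, an mTORC2 subunit; Gfra1, a receptor for GDNF; Btnl2, a butyrophilin-like inhibitor of T cells; the orphan receptor gene Gpr45; and Cyp4f18, which inactivates leukotriene B4. Cdh1 had 12, 16 and 23 counts against 2, 0 and 7, a ratio by the rule that only Btnl2 fell below.

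Constant segments of the T cell receptor gamma locus followed the same libraries. Tcrg-C4 had 228, 232 and 241 counts against 47, 52 and 47, and Tcrg-C2 194, 223 and 203 against 34, 42 and 23. They code for constant regions of the gamma chain, which gamma-delta T cells carry in place of the alpha-beta receptor. Constant segments of this locus are related in sequence. How far reads are shared among them was not tested, and their counts are uncertain. Tcrg-C1 stood at 1.52 times its high-Trim28 mean, beside 6.40 for Tcrg-C2 and 4.94 for Tcrg-C4. The antisense transcripts were rare, Gm13348 with 20, 15 and 15 counts and Gm15614 with 12, 9 and 17, each against 0, 0 and 0 (at least 17.2-fold and 13.1-fold higher). On the opposite strand Gm15614 overlaps Yes1, one of the genes left out by name, in part, and the phosphatase gene Ppp1cb, without shared exons in the annotation. Ppp1cb had 18939 counts over the 6 libraries and means of 367 CPM at low and 248 CPM at high Trim28, and Yes1 had 461 counts in all. The library kit named in the labels keeps no strand, so reads from introns or unannotated exons of Yes1 and Ppp1cb cannot be told apart from it.

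Among the 5 rows without a name, ENSMUSG00000090433 had 190, 185 and 187 counts against 0, 0 and 0, at least 193-fold higher and the steadiest of the genes over 2 CPM. ENSMUSG00000091829 had 38, 49 and 49 against 1, 1 and 0. The other three held 1.32 to 2.60 CPM at low Trim28. Names could not be checked for these rows, so the exclusion of vomeronasal receptor genes could not be applied to them.

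**Figure D3:**
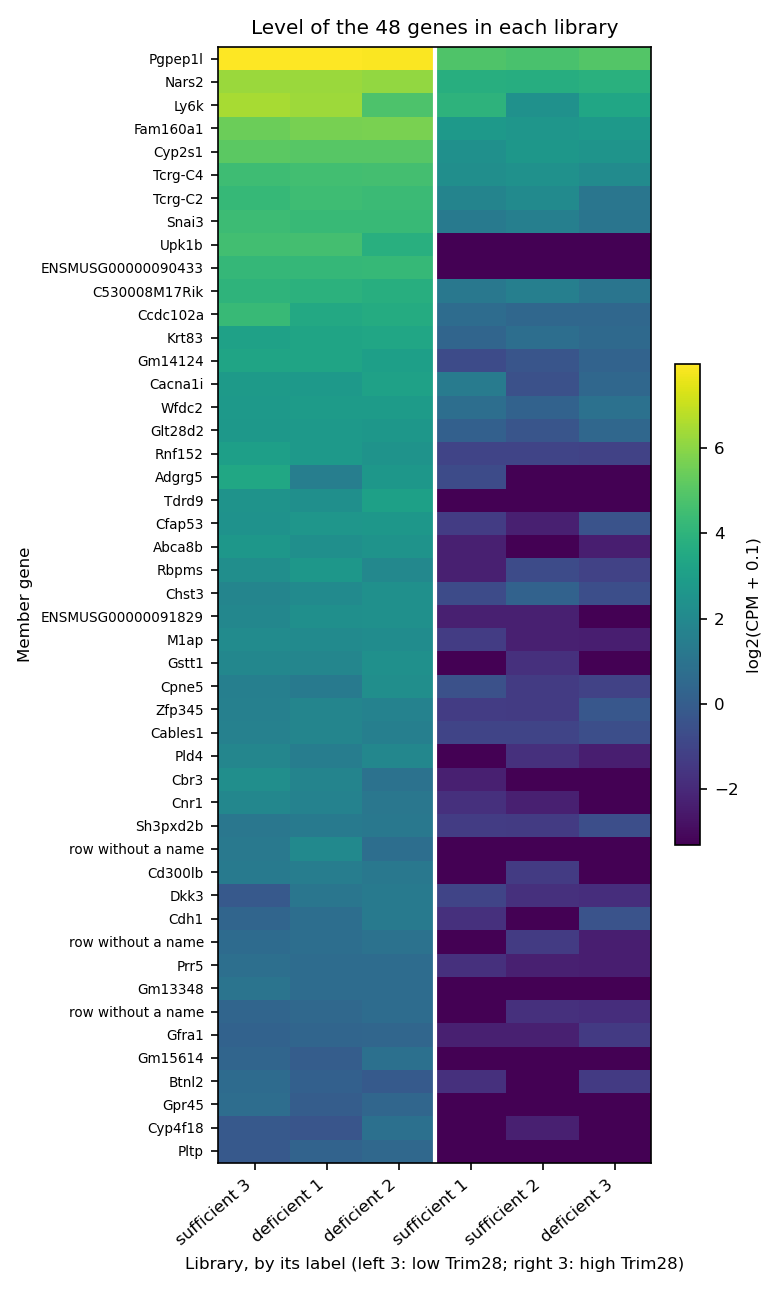
Level of each of the 48 genes (rows, highest mean first) in each library (columns, named by label), as log2(CPM + 0.1); the white line parts the 3 libraries with low Trim28 from the 3 with high Trim28. The darkest cells are counts of 0, which appear only to the right of the line, with 14, 13 and 15 genes at 0 in the libraries labelled sufficient 1, sufficient 2 and deficient 3.

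Within the low-Trim28 set, which spans both labels, most genes had like levels. The highest of these 3 libraries was within 1.5 times of the lowest for 30 of the 48 genes, with a median of 1.30 times. Relative to counting noise alone, the variance among the 3 libraries had a median of 1.08 times the Poisson value, against 1.13 times over the 11961 rows at least as abundant as the lowest of the 48. This measure depends on the number of counts, and the rows were not matched to the genes in abundance, so the medians do not compare their steadiness. The library labelled sufficient 3 was the highest of the 3 for 16 genes and the lowest for 16, deficient 1 for 10 and 17, and deficient 2 for 22 and 15. Each library of the set was thus highest for some of the genes and lowest for others. In the high-Trim28 set the highest library was sufficient 1 for 14 genes, sufficient 2 for 14 and deficient 3 for 12, the 8 genes at 0 aside.

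A few genes differed among the low-Trim28 libraries well beyond counting noise, which the rule did not require or forbid. Of the 22 genes with at least 5 CPM there, 5 varied by more than 1.7 times, against 0.756% of 10051 rows of at least 5 CPM. Ccdc102a, Upk1b and Tdrd9 lay just above this limit, at 1.73, 1.74 and 1.75 times. The limit was not set in advance, and the rows were not matched to the genes in abundance. Of the 5, only Ly6k and Adgrg5 varied by more than 2 times, at 3.17 and 3.81 times. In Ly6k the library labelled deficient 2 was lowest and the highest stood 3.17 times above it, with a variance 164 times the Poisson value. Its neighbour Ly6d, left out by name, was likewise lowest in deficient 2, with 406, 369 and 223 counts. Upk1b was lowest in deficient 2 as well, at 136 against 241 and 239 counts (variance 16.1 times Poisson), and so was Cbr3, at 18 against 48 and 33 (6.31 times).

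Other genes set the libraries apart in another way. Adgrg5 was lowest in deficient 1, at 28 against 109 and 61 counts (24.0 times Poisson). Ccdc102a, 5.6 kb away on the opposite strand, was highest in sufficient 3 like Adgrg5, at 200 against 113 and 121 (14.4 times). Tdrd9 was highest in deficient 2, at 83 against 56 and 48 (5.87 times). Trim28 itself was at 21.2, 23.0 and 18.6 CPM in the 3 libraries.

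**Figure D4:**
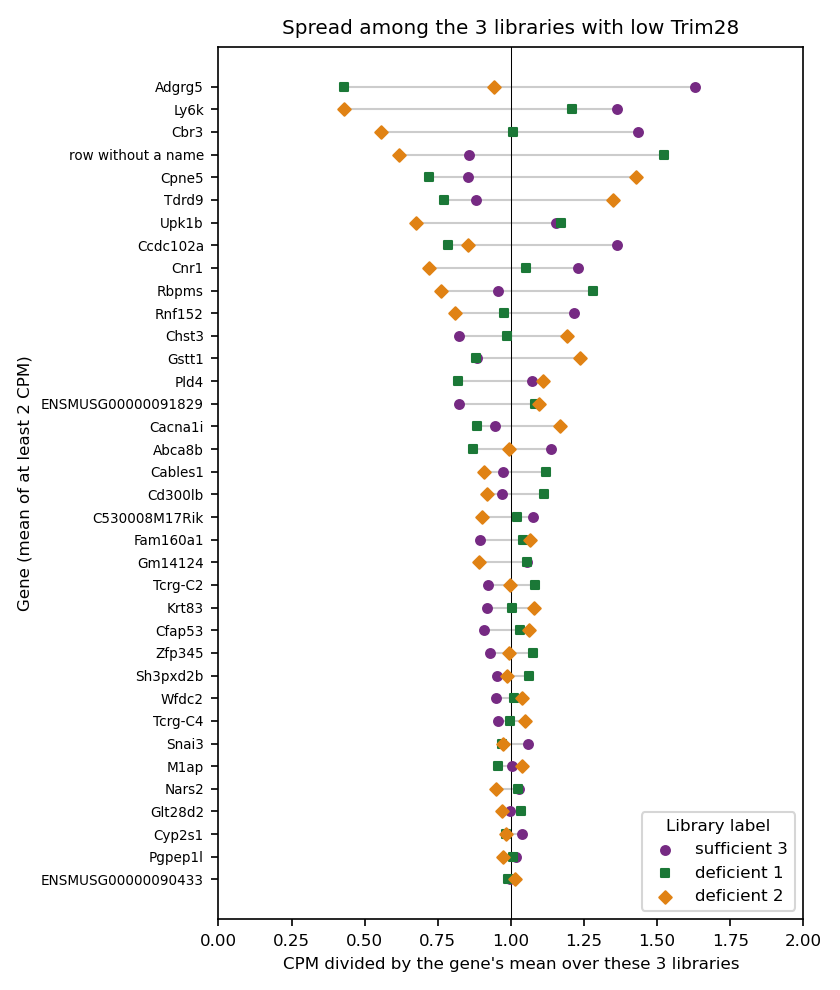
CPM in each low-Trim28 library divided by the gene's mean over the 3 (x axis), for the genes with a mean of at least 2 CPM (y axis, widest spread at the top); each point is 1 library, by its label, and the grey line joins the lowest and highest. Adgrg5, Ly6k and Cbr3 spread widest, and Pgpep1l and ENSMUSG00000090433 have all 3 points near 1.

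The genes were often close to each other on the chromosome. Within 500 kb of another gene that passed the thresholds lay 14 of the 43 genes with a position (32.6%), against 524 of 11734 positioned rows of at least 1 CPM (4.47%). Some of these neighbours are members of a gene family. The pairs among the 48 were Ccdc102a with Adgrg5 (5.6 kb apart), Tcrg-C2 with Tcrg-C4 (37.0 kb), Fam160a1 with Glt28d2 (52.6 kb), Gm14124 with Zfp345 (201 kb) and Wfdc2 with Pltp (271 kb). Next to genes left out by name lay Ly6k, 33.3 kb from Ly6d; Cfap53, 80.9 kb from Myo5b; Abca8b, 274 kb from its paralog Abca5; and Gm15614, which overlaps part of Yes1. The annotated gene Gm37240 overlaps Fam160a1 and Glt28d2 on the same strand, over 4.29% and 14.3% of their exonic bases.

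The nearest genes on either side that were abundant enough to test were then read from a fit without the libraries in which Trim28 goes against the label. In this fit on 4 libraries, replicates 1 and 2 of each label, edgeR's quasi-likelihood test called 1214 of 12183 genes higher in the deficient group at an adjusted p under 0.05, which is 9.96%. Of the 48 genes 44 were abundant enough for it and 43 were called higher; the rule used these libraries, so nothing is read from that count. The exception was Ly6k, with a log2 fold change of 2.39 and an edgeR adjusted p of 0.320.

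No limit of distance was set for neighbours, which lay from 0.104 kb (Aasdh from C530008M17Rik) to 5486 kb (Tdpx-ps1 from Rnf152) away. Of the 85 neighbours, 78 were not themselves past the 4-fold thresholds, and 20 of these were called higher (25.6%, against 9.96% of all tested genes). Among the 20 was Zbtb20, 4076 kb from Upk1b. DESeq2's Wald test called 13 of the 78, against 4.86% of all genes it tested. In all 6 libraries, 23 of the 78 (29.5%) had every low-Trim28 library above every high-Trim28 library, against 11.9% of tested genes. Not every called neighbour did. In Gm10073, Zbtb20, Gm14127, Atp5mpl and Stard3nl the sets overlapped through the library labelled deficient 3. Gm10073 had 626, 620 and 615 counts against 356, 392 and 755, and Zbtb20 1008, 1049 and 916 against 737, 778 and 1111. The median log2 fold change of the 78 was 0.09, against 0.00 for all tested genes. Most neighbours were therefore not called higher, and the shares are given without a test because neighbours are not independent of each other.

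The 78 are neighbours that did not pass the rule, which includes a 4-fold limit with 0.1 CPM added to the lower mean. Their mostly smaller size of change is therefore in large part set by the selection. The rule does not keep every ratio of plain means under 4-fold, and Tcrg-V1 stood at 4.62 times its high-Trim28 mean. On chromosome 18, Mbd1, which encodes a methyl-CpG-binding protein, ends 0.357 kb before Cfap53 starts. It had 3391, 3313 and 3133 counts against 1149, 1022 and 1148, and a log2 fold change of 1.59 ± 0.06 (SE, edgeR adjusted p = 2.72e-10) in the 4 libraries. Cfap53, on the same strand, stood at 16.8 times its high-Trim28 mean and Mbd1 at 3.05 times. Otud1, a deubiquitinase gene 20.8 kb from Gm13348, had 389, 404 and 438 against 130, 136 and 196 counts (1.69 ± 0.11, edgeR adjusted p = 4.55e-08).

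Dop1b, a gene of endosomal traffic 20.9 kb from Cbr3, had 2004, 2137 and 1905 counts against 1030, 978 and 981 (1.03 ± 0.06, edgeR adjusted p = 3.98e-08), while Cbr1, the paralog on the other side of Cbr3, had 380, 365 and 351 against 370, 316 and 414. Spock2, a matrix proteoglycan gene 46.3 kb from Chst3, had 794, 983 and 965 against 467, 526 and 502. Snai3 lies between Mvd, a gene of cholesterol synthesis, and Rnf166, a ubiquitin ligase gene. Mvd had 343, 319 and 289 against 209, 225 and 155 counts, and Rnf166 1503, 1548 and 1409 against 952, 805 and 910, both higher in every low-Trim28 library.

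B4galt4, a galactosyltransferase gene 4.1 kb from Upk1b, had 152, 158 and 111 against 68, 57 and 74 counts, and like Upk1b was lowest in deficient 2 among the low-Trim28 libraries. The receptor kinase gene Axl, next to Cyp2s1, had 863, 963 and 897 against 560, 618 and 530. Gstt2, next to Gstt1, had 320, 336 and 309 against 149, 181 and 190, whereas Gstt3 on the other side had 36, 46 and 46 against 25, 43 and 22 and was not called. Within the receptor gamma locus Tcrg-V1 had 17, 22 and 27 against 4, 3 and 8 counts. Its log2 fold change in the 4 libraries, 2.79 ± 0.45 (SE), was as large as those of Tcrg-C2 (2.51) and Tcrg-C4 (2.28). Reads may be shared among the Gstt and Tcrg copies.

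Other close neighbours were not called higher. Gatb, 4.4 kb from Fam160a1, had 99, 102 and 123 counts against 100, 109 and 128. On both sides of Pgpep1l, the most abundant of the 48 genes, levels were not higher: Igf1r, 2.9 kb away, had 593, 570 and 460 against 708, 659 and 785 counts (log2 fold change of -0.39 ± 0.09, edgeR adjusted p = 0.00937), and the predicted gene Gm16157 45, 47 and 41 against 63, 67 and 79 (-0.54 ± 0.21, edgeR adjusted p = 0.0979).

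**Figure D5:**
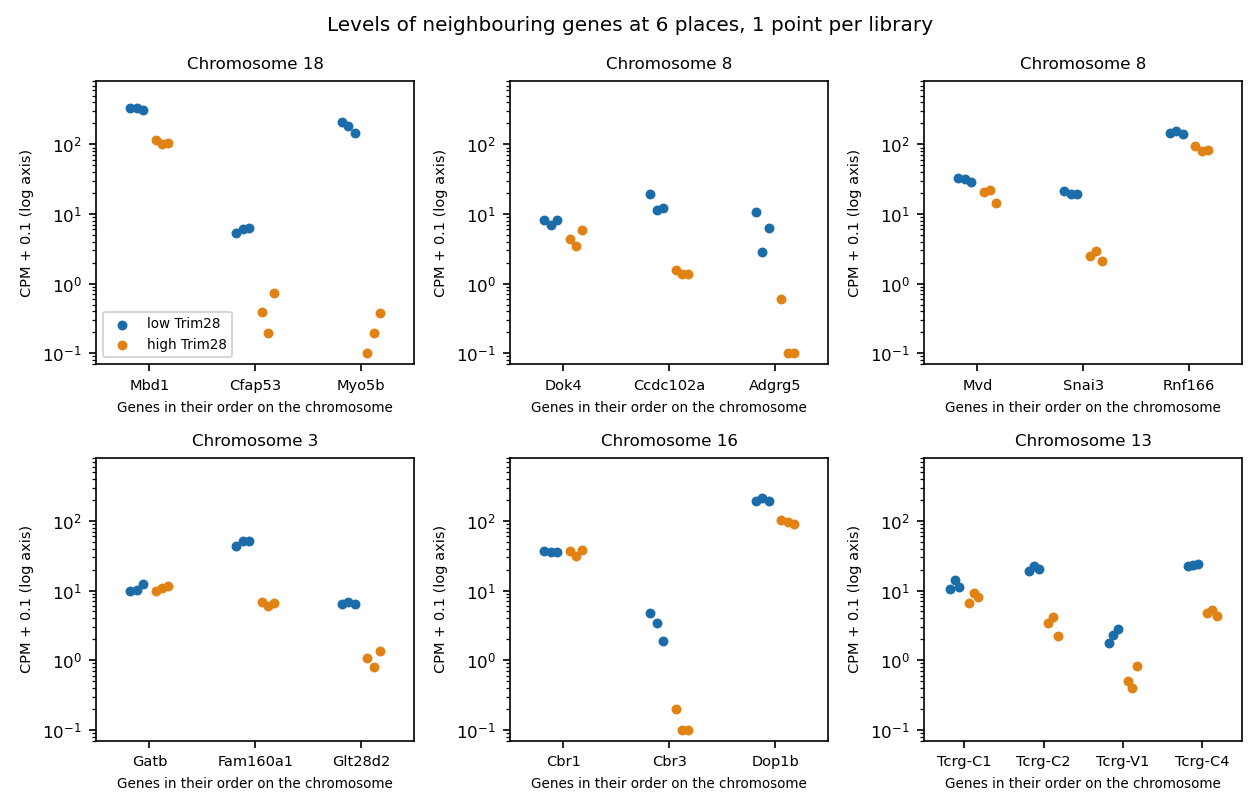
Levels of neighbouring genes at 6 places, as CPM + 0.1 on a log axis, with 1 point per library (blue, low Trim28; orange, high Trim28) and genes in chromosome order along the x axis. Mbd1, Mvd, Rnf166 and Dop1b lie higher in the blue libraries, and Gatb and Cbr1 overlap between the sets.

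With all 6 libraries as labelled, none of the 42 genes abundant enough for the fit was called by edgeR, where 0.0165% of 12158 genes were called in either direction and 0.00823% as higher in deficient cells. None reached an unadjusted p under 0.05, against 7.76% of all tested genes in either direction and 4.26% higher, and DESeq2's Wald test called none either. The rule puts the library labelled sufficient 3 high and deficient 3 low for every one of these genes, so this outcome follows from the selection and nothing is read from it. Log2 fold changes, deficient over sufficient, ran from -0.34 for Adgrg5 to 1.68 for Cdh1 with a median of 0.79, against 0.00 for all tested genes, and 41 of the 42 were above 0. Pgpep1l had 0.76 ± 1.34 (SE) with an edgeR adjusted p of 0.898, and Trim28 -0.90 ± 1.46 with 0.889. Each group as labelled holds at least 1 library of each Trim28 level, so these standard errors carry the difference between the sets.

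In the authors' deposited table, 39 of the genes were found by symbol and 37 had an adjusted p. Which libraries stood in which group is not given there, and the direction was read from Trim28, at 3.11 on the log2 scale in the authors' deposited table. With the opposite sign to Trim28, 35 of the genes were called in the authors' deposited table, where 3.85% of 12070 genes were called with that sign. Pgpep1l was at -2.81 and Adgrg5 at -0.87 in the authors' deposited table, the latter with an adjusted p of 8.39e-12, which the fit of the 6 libraries as labelled did not give. In the 4-library fit, deficient over sufficient, Adgrg5 was at 4.11. Upk1b was at 10.56 in that fit and at -2.27 in the authors' deposited table. The authors' log2 values may thus be on another scale, and their sizes are not read as fold changes. Deficient over sufficient, Trim28 was at -0.90 in the fit of the 6 libraries as labelled and at -3.54 in the 4-library fit. The authors' deposited value of 3.11 is thus not the one that the 6 libraries give as labelled. The contrast may be that of the rule, so nothing is read from the count. Krt83, at 0.01 on the log2 scale and with no adjusted p in the authors' deposited table, did not go with its counts here. Its mean normalized count in the authors' deposited table was 0.324, where each library here held 12 to 101 counts. That entry therefore does not describe these counts, and the symbol may stand for another row there.

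Other genes of the pathway were read from a list of 30 genes of KAP1 repression found in the table, 29 of them tested. In the 4 libraries edgeR called 9 higher and 5 lower, where 9.96% of all tested genes were called higher and 17.4% in either direction. Trim28 was among the 5, and among the 9 was Trim24, which passed the 4-fold rule and was left out by name. The list had a median log2 fold change of 0.07 against 0.00 for all tested genes. With all 6 libraries as labelled edgeR called 0 of the 29. The methyltransferase gene Setdb1 had 3000, 2879 and 2857 counts in the low-Trim28 libraries against 1189, 1193 and 1333, and Morc3, a chromatin ATPase gene, 3170, 3379 and 3116 against 1453, 1494 and 1684. Both stayed below the 4-fold limit. Dnmt1 (2382, 2289 and 2407 against 2655, 2860 and 2778) and Uhrf1 (358, 327 and 337 against 389, 479 and 458), which maintain DNA methylation, were called lower.

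Markers of other cells were read beside the genes. Treg markers (10 genes) summed to 5585 to 5921 CPM per library. In the 4 libraries edgeR called 1 of the 10 higher (Ikzf2) and 2 lower (Foxp3 and Cd4), where 17.4% of all tested genes were called in either direction. Ikzf2 was at 925, 1000 and 971 CPM in the low-Trim28 libraries against 871, 865 and 1135 CPM in the others. Foxp3 was at 621, 614 and 596 CPM against 747, 697 and 612 CPM (log2 fold change of -0.25 ± 0.05, edgeR adjusted p = 0.00509). In Ikzf2 and Foxp3 the sets thus overlapped through the library labelled deficient 3. The myeloid and dendritic list (8 genes, 1 of them at 0 in every library, 61.4% of counts from Cd68) summed to 5.82 to 8.04 CPM in the low-Trim28 libraries and 5.0 to 6.83 in the others, the B cell list (7 genes, 96.6% from Ighm) to 544 to 581 against 606 to 697, and the natural killer list (4 genes, 3 at 0, all counts from Klrb1c) to 8.74 to 10.8 against 2.18 to 2.77. The CD8 T cell list (3 genes, 97.7% from Cd8b1) ran from 10.3 to 12.9 against 11.6 to 14.8 CPM. The granulocyte, platelet and red cell list (9 genes, 5 at 0) ran from 0 to 0.301 against 0.0990 to 0.273 CPM. The stromal and endothelial list (8 genes, 2 at 0, 99.2% from Pecam1) ran from 199 to 225 against 228 to 248 CPM. The plasma cell list (99.0% from Xbp1) ran from 91.8 to 96.0 against 98.6 to 109 CPM. Of the lists of other cells, the same fit called 3 of the 4 tested B cell genes lower and Klrb1c higher, and no other gene. The part of other cells in the levels of genes such as Pld4, Cd300lb or the Tcrg segments was not tested.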

How the data were processed

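RNA from sorted Treg was counted per gene in 6 libraries. Per the submitters' processing notes, the tools were HTSeq 0.7.2, TopHat2 2.1.1 and DESeq2 on mm10, with no role stated. Annotation release and the counter's strand setting: not given in the sources used here. The count table, as deposited, lists unnormalized counts by Ensembl identifier. The table of the authors' own comparison holds, per the file headers, a mean normalized signal, log2 fold changes with standard errors, a test score, p-values and q-values; its direction was taken from the sign of Trim28, which is positive.

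CPM used column totals. Names and positions came from GENCODE M21 on the same assembly, with 32919 rows named. For the count fits edgeR 4.0.16 was run under R 4.3.3 (TMM, filterByExpr, robust quasi-likelihood test, Benjamini-Hochberg adjustment at 0.05 over all tested genes), with DESeq2 1.42.0 as an alternative. The standard error of an edgeR log2 fold change is its absolute value divided by the square root of the test's F statistic. The fits were tested on simulated data. Plots used matplotlib 3.10.9.

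The genes, their rule and the lists were chosen with earlier results of these data known. Values in each library were given for the 30 protein-coding genes and up to 8 others with the highest mean, at most 2 of them rows without a name; the printed promoters were chosen after values were seen.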

Additional observations from a re-analysis of the deposited data

How the results depend on the processing

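The rule gave 48 genes with TMM or upper-quartile scaling and with overlap allowed, 36 at a minimum of 2 CPM, 58 at 0.5 CPM, 72 at 3-fold, and fewer at 8-fold (24) or with 0.5 CPM added to the lower mean (29, all among the 48); without single libraries it gave 48 to 54, with 44 to 48 of the 48 among them. With all 6 libraries as labelled, the 2 called genes became 6 with DESeq2 and 0 with the replicate block, and without single libraries 1 to 807, the highest without sufficient replicate 3. Of the 48 genes 0 to 1 were called without single libraries. Without both libraries numbered 3, 2114 genes and 43 of the 48 were called. In the 4 libraries the 1214 genes called higher became 600 with DESeq2 and 1335 with the replicate block, and without single libraries 939 to 998; 36 to 47 of the 48 were called. The count of 20 neighbours, an outcome added after seeing the data, became 13 with DESeq2, 21 with the replicate block and 17 to 19 without single libraries.

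Deviations from the group means, compared between libraries with the same number, had correlations of -0.365, -0.293 and -0.613 over 6 libraries and of -0.019 over 4, so the numbers were not taken to pair samples.

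For Trim28 and the 48 genes as labelled, 406 of 469 values kept their direction and side of the threshold, 42 gained a call, 41 of them without both libraries numbered 3, and 21 changed sign. Without sufficient replicate 1 these were Ly6k (-0.27), Ccdc102a (-0.34), Rnf152 (-0.070), Cbr3 (-0.48) and Cnr1 (-0.12); without sufficient replicate 2 the same genes (-0.42, -0.36, -0.075, -0.52 and -0.16); and without deficient replicate 1 Ly6k (-0.95), Upk1b (-0.22), Ccdc102a (-0.16), Rnf152 (-0.073), Cbr3 (-0.86) and Cnr1 (-0.35). Ccdc102a changed without deficient replicate 2 (-0.26), and Adgrg5 with the replicate block (0.73), without sufficient replicate 3 (3.50), deficient replicate 3 (0.27) or both (4.11). The highest values without single libraries, all without sufficient replicate 3, were 1.92 for Ly6k, 9.99 for Upk1b, 2.55 for Ccdc102a, 3.33 for Rnf152, 4.77 for Cbr3 and 3.42 for Cnr1, and the lowest for Adgrg5 was -1.44, without deficient replicate 2. In the 4 libraries 342 of 352 values stayed, 7 lost the call, 3 gained it (Ly6k, with the block or without deficient replicate 1 or 2) and 0 changed sign. The cause was not tested. Depth limits levels under 0.273 to 0.301 CPM.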
